A study of Mus musculus with 56 samples.

Results

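Genes of the heart muscle cell were followed across 3 tissues of mice given chrysene, none of which was the heart. The set held 10 genes of the 20018 gene symbols that could be named on the array: Myh6, Myl7 and Myl4 of the thick filament, Actc1, Tnni3 and Tnnt2 of the thin filament, Ryr2, Casq2 and Pln of calcium handling, and the atrial hormone gene Nppa. They were taken by symbol as textbook products of cardiac muscle, each array probe being matched to its gene through its RefSeq transcript. Where a gene had more than 1 probe, the probe with the highest mean sample signal in the tissue was used. That choice arose only for Myh6, which had 2 probes.

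The animals were adult male Muta™Mouse, about 14 weeks old and housed singly, which all carry a lacZ reporter transgene. Chrysene, which is a polycyclic aromatic hydrocarbon, was given by gavage with olive oil as the vehicle at 17.5 (D1), 50 (D2) or 150 mg/kg-bw/day (D3) for 28 consecutive days, with olive oil alone for the D0 controls, and tissues were taken 72 h after the last dose. RNA from random sections of frozen lung, liver and forestomach was labelled with Cy5 and hybridized with a universal mouse reference RNA in Cy3, so every value below is a log2 ratio of a sample over that reference unless stated otherwise. The comparison with D0 addressed what repeated exposure changed in each tissue.

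There were 18 lung arrays (5, 5, 3 and 5 at D0, D1, D2 and D3), 19 liver arrays (5, 5, 4 and 5) and 19 forestomach arrays (5, 5, 4 and 5), 1 per mouse and tissue. Mice are named by their numbers, 1 to 5 at D0, 6 to 10 at D1, 11, 12, 13 and 15 at D2 and 16 to 20 at D3. A sample signal was well above background on 47.6 to 55.3% of probes in lung, 33.3 to 45.2% in liver and 18.2 to 50.2% in forestomach, and no spot of a member was saturated. Markers matched the labelled tissues: the mean log2 ratio of 5 alveolar type 2 genes was 5.39 to 5.88 in lung, that of 4 hepatocyte genes was 6.30 to 7.08 in liver, and that of 5 keratinocyte genes was 3.66 to 6.39 in forestomach. The hepatocyte genes were also raised on some forestomachs, at -0.01 to 4.62. On 2 lung arrays, those of mice 17 and 19, the 17 skeletal muscle genes averaged 4.55 to 4.71, against -0.82 to -0.23 on the other 16. The keratinocyte genes averaged 3.81 to 4.25 on those 2 lung arrays and -0.72 to -0.43 on the rest. Member results that turn on these arrays are given with and without them.

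The force of a heart muscle cell comes from sarcomeres, in which thick filaments of myosin pull on thin filaments of actin. Calcium released from the sarcoplasmic reticulum binds the troponin complex on the thin filament and lets myosin engage, and its return to the store ends the beat. In mice, heart muscle is not confined to the heart: a sleeve of cardiomyocytes extends along the pulmonary veins into the lung. In an extract of bulk tissue, fewer cells of a type and less RNA per cell cannot be told apart, and neither the source of these transcripts nor its part in any result was tested here.

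Promoters of 3 members are shown because these genes covered 3 different patterns: Myh6 varied most between lungs, Myl7 was high in forestomach as well, and Nppa was high in only a few lungs. Each is a 300-base RefSeq window of assembly GRCm38.p6, from 250 bases before the annotated start to 50 after it, read 5′ to 3′ on the gene's strand, at chr14:54966558-54966857 (minus strand) for Myh6, chr11:5898733-5899032 (minus strand) for Myl7 and chr4:148000472-148000771 (plus strand) for Nppa. Capitals mark matches, on either strand, to TATAAA (the letters of the core promoter's TATA box), CATTCC (MCAT, the element of TEAD factors), AGATAA or TGATAA (the GATA motif), CAAGTG (the element bound by NKX2-5), the CArG box of SRF and the MEF2 site.
Myh6: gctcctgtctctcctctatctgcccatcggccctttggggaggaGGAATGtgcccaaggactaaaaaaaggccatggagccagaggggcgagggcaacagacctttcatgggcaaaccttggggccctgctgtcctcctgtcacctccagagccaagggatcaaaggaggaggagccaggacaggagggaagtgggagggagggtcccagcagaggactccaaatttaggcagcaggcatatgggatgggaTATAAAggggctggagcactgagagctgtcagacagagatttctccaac
Myl7: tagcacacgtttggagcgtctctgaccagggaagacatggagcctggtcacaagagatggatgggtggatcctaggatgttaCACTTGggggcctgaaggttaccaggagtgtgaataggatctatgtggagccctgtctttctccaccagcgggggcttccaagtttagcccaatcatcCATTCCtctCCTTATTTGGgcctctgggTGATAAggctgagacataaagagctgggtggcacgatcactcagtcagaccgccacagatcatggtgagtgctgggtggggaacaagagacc
Nppa: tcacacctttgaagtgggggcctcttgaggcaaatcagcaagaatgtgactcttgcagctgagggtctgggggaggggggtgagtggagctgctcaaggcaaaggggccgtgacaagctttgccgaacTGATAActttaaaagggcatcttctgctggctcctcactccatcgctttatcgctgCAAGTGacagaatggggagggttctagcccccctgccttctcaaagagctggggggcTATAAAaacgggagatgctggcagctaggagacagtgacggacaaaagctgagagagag
The Myh6 window held an MCAT match on the opposite strand and a TATAAA match that begins 2 bases after the annotated start. That start is a RefSeq transcript start inside the Myh6 gene and not its outermost 5′ end. The Myl7 window held matches to the CArG box, the MCAT element, a GATA motif and, on the opposite strand, the NKX2-5 element, and the Nppa window held a GATA motif, the NKX2-5 element and TATAAA. All 10 members had a window in the table, with 11 windows in all because Tnnt2 had 2. A CArG box was in 2 of the 11 (Myl7 and Actc1), against 1.63% of all 32851 windows of the same length, and a MEF2 site in 1 (Casq2), against 3.19%. TATAAA was in 4 of 11 (13.6% of all windows), CATTCC in 3 (14.7%), AGATAA in 2 (11.2%), TGATAA in 3 (9.05%) and CAAGTG in 3 (13.6%). The E-box CANNTG, which CAAGTG overlaps, was in 10 of 11 (72.3% of all windows) and is not capitalised. These matches are descriptions of the letters in each window.

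In lung, most of the cardiac genes differed widely between mice of the same dose group. Myh6 (chr14:54941921-54968017, GRCm38.p6), the alpha cardiac myosin heavy chain and the main motor protein of the adult mouse heart, had log2 ratios of 0.22, 0.36, 6.16, 6.12 and 5.86 in the D0 lungs of mice 1 to 5. In the D1 lungs of mice 6 to 10 the Myh6 log2 ratios were 0.67, 5.57, 3.74, 6.72 and 5.15. They were 2.07, 6.90 and 6.16 in the D2 lungs of mice 12, 13 and 15, and 6.46, 6.54, 4.85, 6.49 and 4.70 in the D3 lungs of mice 16 to 20. Mice 1, 2 and 6 were the 3 lungs under 1, the other 15 lay at 2.07 or above, and the values of all 4 dose groups overlapped. Its within-dose SD of 2.37 was the 7th highest among the 31515 probes tested in lung, whose median was 0.16.

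The atrial light chains followed the same mice. Myl7 (chr11:5896637-5898782), the atrial regulatory myosin light chain, had lung log2 ratios of 0.38, 0.07, 4.69, 4.08 and 4.83 at D0 and of 0.26, 2.67, 1.13, 4.57 and 2.44 at D1. At D2 they were 0.69, 5.60 and 3.62, and at D3 5.03, 4.94, 2.04, 3.97 and 1.62. Myl7 was again lowest in mice 1, 2 and 6, with mouse 12 next, and its dose groups overlapped. Myl4 (chr11:104546017-104587215), the atrial essential light chain, had log2 ratios of -0.25, 0.06, 3.94, 3.33 and 4.47 at D0 and of -0.16, 1.96, 0.73, 4.01 and 1.83 at D1. At D2 its log2 ratios were 0.28, 5.46 and 3.37, and at D3 4.85, 4.40, 1.36, 3.69 and 0.83. Mice 1, 2 and 6 had the 3 lowest values of Myl4 too, and mouse 13 had the highest value of all 3 thick filament genes. Within-dose SDs of the log2 ratios were 2.00 for Myl7 and 2.01 for Myl4, ranked 21st and 18th.

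**Figure D1:**
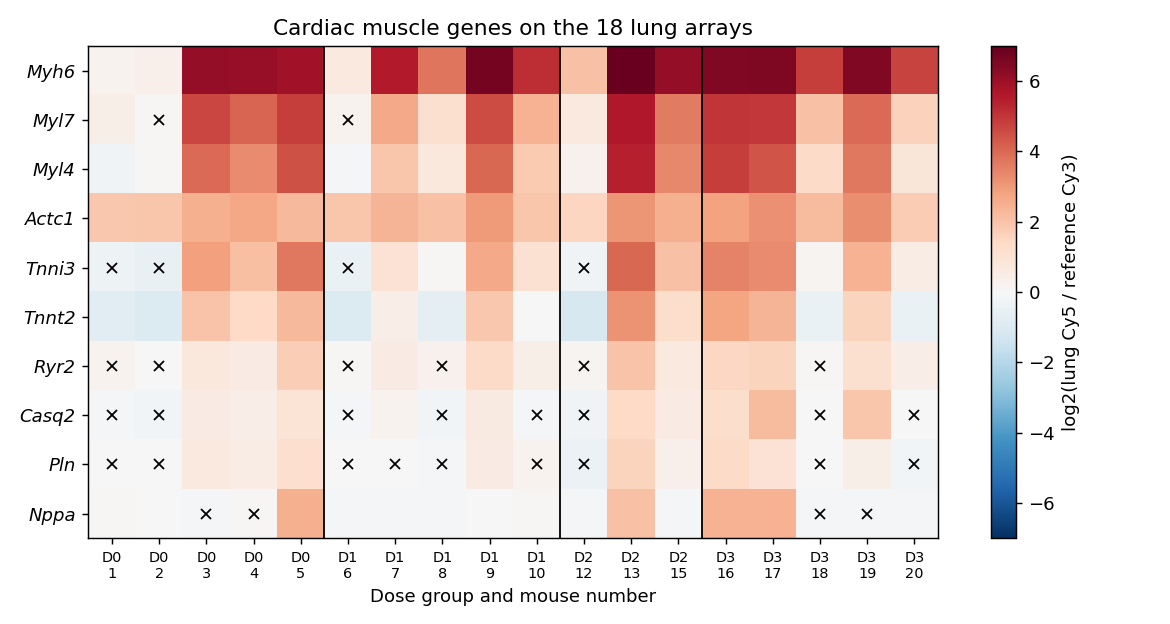
Log2 ratio (sample over reference) of the 10 cardiac muscle genes in the 18 lungs, mice in columns by dose group and genes in rows by role, with a cross where the sample signal was not well above background. Mice 1, 2 and 6 are pale in nearly every row, with Myh6 at 0.67 or less, and mouse 13 is high in every row, with Myh6 at 6.90.

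Thin filament genes of the lung split into a pair that swung widely and 1 that did not. Tnni3 (chr7:4518305-4522718), cardiac troponin I, the inhibitory subunit, had log2 ratios of -0.35, -0.50, 2.88, 2.12 and 3.67 at D0 and of -0.49, 0.99, 0.09, 2.63 and 1.07 at D1. At D2 they were -0.23, 4.00 and 2.07, and at D3 3.50, 3.30, 0.18, 2.43 and 0.50. The lowest lungs for Tnni3 were those of mice 1, 2, 6 and 12, and 14 of the 18 arrays had a sample signal well above background. Tnnt2 (chr1:135836315-135852268), cardiac troponin T, which ties the complex to tropomyosin, had log2 ratios of -0.78, -0.94, 2.00, 1.39 and 2.29 at D0 and of -0.94, 0.44, -0.66, 1.90 and -0.02 at D1. At D2 the Tnnt2 log2 ratios were -1.14, 3.13 and 1.24, and at D3 they were 2.75, 2.38, -0.48, 1.58 and -0.47. Its dose groups overlapped as well. Actc1 (chr2:114047282-114052875), the cardiac alpha actin, had a narrower spread of log2 ratios, from 1.90 to 2.73 at D0, 1.92 to 2.96 at D1, 1.52 to 3.08 at D2 and 1.77 to 3.25 at D3.

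The narrow range of Actc1 belonged to the ratio and not to the sample channel. Its unnormalized Cy5 signal ran 33.4-fold across lungs, from 1254.5 to 41939, while the Cy3 signal of the common reference on the same spots ran 11.1-fold, from 342 to 3796, and the log2 signals of both channels had a correlation across arrays of r = 0.97 (n = 18). The highest Cy5 signals were those of mice 17 and 19, and without them Actc1 ran 12.9-fold in Cy5 (1254.5 to 16176.5) and 4.67-fold in Cy3 (342 to 1597), with r = 0.93. Myh6 had the same feature: Cy5 ran 764-fold (95 to 72602), also without mice 17 and 19, and the deposited ratio 102-fold, with r = 0.89 between channels. Its Cy3 signal ran from 43 to 519 and was above background on 13 of 18 lungs, so the lowest Cy3 values are only a bound. By contrast, the Cy3 signal of Myl4 ran only 1.29-fold (1093 to 1410) while its Cy5 signal ran 41.7-fold. Since the reference is 1 RNA, the ratios of Actc1 and Myh6 spanned less than their sample signals did, and the part of the scanner or of the spot in this was not tested.

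The calcium handling genes moved over a smaller range. Ryr2 (chr13:11553099-12106945), the calcium release channel, had lung log2 ratios from 0.03 to 1.70 at D0, 0.07 to 1.34 at D1, 0.21 to 2.00 at D2 and 0.08 to 1.56 at D3. Casq2 (chr3:102086415-102146514), the cardiac calsequestrin that buffers calcium in the store, ran from -0.21 to 0.96, -0.17 to 0.63, -0.27 to 1.42 and 0.00 to 2.22 in the same order. Pln (chr10:53337686-53345999), phospholamban, the brake on the calcium pump, ran from -0.04 to 1.15, -0.06 to 0.56, -0.43 to 1.56 and -0.19 to 1.34. Ryr2 was highest in mouse 13 and Pln likewise, and Casq2 was highest in mice 17 (2.22) and 19 (1.96), the lungs with skeletal muscle transcripts, followed by mouse 13 (1.42). The sample signal was well above background on 12, 10 and 9 of the 18 lungs for Ryr2, Casq2 and Pln, and was near the detection limit elsewhere.

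Nppa (chr4:148000722-148002074), which encodes atrial natriuretic peptide, was high in 4 lungs only. Its log2 ratios were 2.50 in mouse 5 (D0), 2.07 in mouse 13 (D2), and 2.46 and 2.45 in mice 16 and 17 (D3), and lay between -0.14 and 0.10 in the other 14. Those 4 lungs came from 3 dose groups. The Myh6 log2 ratio was 5.86 to 6.90 in them, but 7 of the other 14 lungs also had Myh6 above 5 with no raised Nppa. For 6 of the 9 other members the 4 lungs held the 4 highest log2 ratios: Myl7 was at least 4.83 in them and at most 4.69 elsewhere, Myl4 at least 4.40 and at most 4.01, Tnni3 at least 3.30 and at most 2.88, Tnnt2 at least 2.29 and at most 2.00, Ryr2 at least 1.45 and at most 1.34, and Pln at least 1.01 and at most 0.69. Myh6, Actc1 and Casq2 did not separate them. This division was seen in the values and was not tested. The sample signal for Nppa was well above background on 14 of 18 lungs.

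Several of the contractile filament genes varied with Myh6 across lungs. In a limma fit of every probe on the Myh6 log2 ratio with dose group as a term, 4 of the 9 other members had a slope at a Benjamini-Hochberg adjusted p of 0.05 or less over 31513 probes, where 0.0286% of all probes did. The slopes were 0.79 (SE 0.07, adjusted p = 0.000254) for Myl7, 0.77 (SE 0.09, adjusted p = 0.00141) for Myl4, 0.62 (SE 0.08, adjusted p = 0.00726) for Tnni3 and 0.56 (SE 0.08, adjusted p = 0.0173) for Tnnt2 in limma. These 4 genes belong to the contractile filaments. Slopes of the other 5 were all positive, 0.17 for Actc1, 0.20 for Ryr2, 0.20 for Casq2, 0.18 for Pln and 0.17 for Nppa, with limma adjusted p from 0.493 to 0.951. With the Cy5 signal alone in place of the ratio, Pln passed as well, with a slope of 0.14 (limma adjusted p = 0.0357). Without mice 17 and 19 the same 4 members passed, Myl7 with a slope of 0.78 (adjusted p = 0.000285), Myl4 with 0.76 (adjusted p = 0.00207), Tnni3 with 0.61 (adjusted p = 0.00436) and Tnnt2 with 0.55 (adjusted p = 0.0147) in limma, where 0.0837% of all probes did. On all 18 lungs only 9 probes in all passed, and the other 5 were Sln, Tcap, Mb, Hamp and Ckmt2. Without the lung of mouse 12 the member count fell to 2, with Tnni3 and Tnnt2 lost, and Tnnt2 was also lost without mouse 1, 2, 3, 5 or 9.

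For Myl7, deviations from the dose-group means gave Pearson r = 0.94 (permutation p = 1e-05) and Spearman rho = 0.86 (permutation p = 2e-05) with Myh6 over the 18 lungs, the first being the smallest p that 100000 permutations can give. The other r values with Myh6 were 0.91 for Myl4, 0.88 for Tnni3, 0.86 for Tnnt2, 0.73 for Actc1, 0.72 for Ryr2, 0.70 for Pln and 0.67 for Casq2, with rho from 0.69 to 0.82 and permutation p from 1e-05 to 0.003. These were 9 relations in 1 family, and the multiplicity is carried by the limma fit over all probes. Nppa fell into separate groups of values and is given no r. Its permutation p of 0.1 was the highest of the 9, and the 8 others were each 0.003 or less. Without mice 1 and 2, the lungs farthest from the Myh6 median, r was 0.90 for Myl7, 0.87 for Myl4, 0.82 for Tnni3, 0.81 for Tnnt2, 0.77 for Actc1, 0.69 for Ryr2, 0.64 for Pln and 0.64 for Casq2. Without mice 17 and 19, r was 0.94 for Myl7, 0.91 for Myl4, 0.89 for Tnni3, 0.86 for Tnnt2, 0.78 for Actc1, 0.72 for Ryr2, 0.70 for Pln and 0.78 for Casq2. The lung arrays lay on 3 slides, and mice 1, 2 and 6 were all on slide 1, where Myh6 had a median log2 ratio of 0.67 (n = 5) against 6.16 on slide 2 (n = 7) and 5.51 on slide 3 (n = 6). Within slides 1, 2 and 3, r with Myh6 was 0.96, 0.97 and 0.90 for Myl7, 0.94, 0.95 and 0.86 for Myl4, 0.91, 0.93 and 0.86 for Tnni3, and 0.92, 0.93 and 0.87 for Tnnt2, and with slide as a term 4 members passed as before. On the 16 lungs without mice 17 and 19, the members given an r also followed the mean of the skeletal muscle list, with r of the deviations from 0.72 (Actc1 and Myh6) to 0.87 (Ryr2), although that mean ran only from -0.82 to -0.23 there. Nppa is given no r here either, because its values fell into separate groups. Of its genes, the fast fibre markers Myh1, Myh2, Myh4, Mylpf and Casq1 were above background on the arrays of mice 17 and 19 only. The list's other fast fibre genes, Tnnt3, Tnni2, Tnnc2, Actn3, Atp2a1, Pvalb and Mybpc2, were above background on 10 to 18 of the 18 lungs. The part of this list in the members' pattern was not tested.

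**Figure D2:**
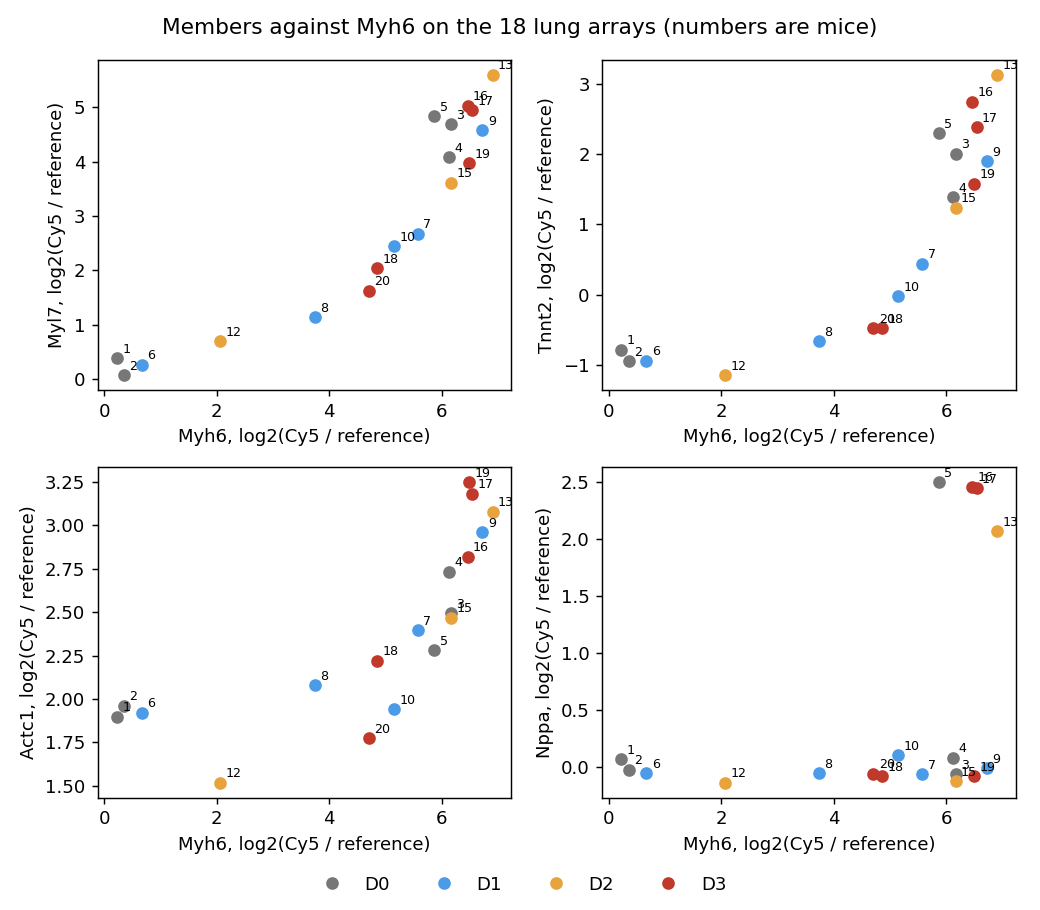
Log2 ratios of Myl7, Tnnt2, Actc1 and Nppa (vertical axes) against that of Myh6 (horizontal axis) in the 18 lungs, 1 point per mouse, coloured by dose group. Myl7 and Tnnt2 climb with Myh6 (straight-line slopes 0.79 and 0.56), more steeply where Myh6 is high, Actc1 climbs little (0.17), and Nppa is near 0 except in 4 lungs above 2.

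The second Myh6 probe was much dimmer in lung, with a mean Cy5 signal of 129 against 15394. Its log2 ratios ran from -0.12 to 1.88, with the sample signal well above background on 9 of 18 lungs, and its deviations had r = 0.81 with those of the first probe. It was highest in mice 5 (1.88) and 13 (1.73). With this probe in place of the first as the index, 8 of 9 members passed in the limma fit, all but Actc1, including Nppa with a slope of 1.25 (adjusted p = 0.0387). The share of all probes that passed with this index was not counted, so the count is a description only.

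Genes whose pattern was most like Myh6 were sought among 14086 genes with a sample signal well above background on at least 9 lungs, by r of the deviations from dose-group means. The first 9 were Myl7 (0.94), Sln (0.92), Myl4 (0.91), Tnni3 (0.88), Tcap (0.88), Mb (0.87), Tnnt2 (0.86), Hamp (0.85) and Ckmt2 (0.84), where 18 arrays share 1 reference and 3 slides. Sln encodes sarcolipin, an atrial inhibitor of the calcium pump, Mb myoglobin, Tcap telethonin of the Z-disc, Ckmt2 the sarcomeric mitochondrial creatine kinase and Hamp hepcidin. Among the remaining members Actc1 ranked 24th, Ryr2 27th, Pln 33rd and Casq2 54th, and Nppa, which is given no r, lay below all of these. On the 16 lungs without mice 17 and 19, r was 0.96 for Sln, 0.94 for Tcap, 0.93 for Mb, 0.90 for Hamp and 0.91 for Ckmt2.

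Other genes of heart muscle were read from a list of 37, and divided by chamber. Of 5 atrial genes, Sln ran from -0.13 to 7.39 in log2 ratio across lungs and Mybphl from -0.09 to 3.23, and their sample signals were well above background on 15 and 12 of 18 lungs. Gja5, a gap junction gene that arteries also use, stayed between 3.92 and 5.17, and Bmp10 and Kcnj3 were well above background on 0 and 1 lungs. Among 4 ventricular genes, Myl2, the ventricular regulatory light chain, had log2 ratios from -0.14 to 0.35 in 17 lungs and 3.44 in mouse 17, a lung with skeletal muscle transcripts. Myl3, the ventricular and slow muscle essential light chain, ran from 0.04 to 5.96 (above background on 15 of 18), Myh7 stayed between 4.86 and 5.61, and Irx4 was above background on 6 of 18. Over the list, 32 genes were tested for a slope on Myh6, 27 slopes were positive and 2 passed in limma (Sln and Ckmt2). Without the lungs of mice 17 and 19, where Sln reached 6.53 and Myl3 4.43 in log2 ratio, 11 of the 32 passed with positive slopes, against 0.0837% of all probes. These included Myl3 (0.55, limma adjusted p = 0.00436) and the sarcomere genes Tnnc1, Ttn, Actn2, Myom2, Myoz2 and Csrp3, and the count thus depends on these arrays. In lung against liver 16 of 33 tested genes of the list were higher and 5 lower, where 25.2% and 21.5% of all probes were, and in lung against forestomach 16 of 34 were higher and 5 lower, where 18.6% and 17.9% were. Without those 2 lungs the counts were 16 and 5 against liver and 16 and 6 against forestomach. Only 14 of the 37 genes passed the filter in liver and 17 in forestomach, against 32 in lung. Many therefore entered these tissue comparisons through lung alone, and the counts are a description and no support.

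No member met the limits for a change with chrysene in lung. At D3 against D0 the log2 differences were positive for all 10, with a median of 0.42 against -0.03 over all probes, but 0 of 10 met the study's limits (limma adjusted p of 0.05 or less and 1.5-fold), where 0.127% of 31515 probes did. At an unadjusted p of 0.05 or less the count was also 0 of 10, against 16.2% of all probes, and the study's Fs statistic called 0 of 10, against 0.165%. The difference for Myh6 was 2.06 (SE 1.35, 95% interval -0.78 to 4.90, adjusted p = 0.473 in limma), from 3.75 ± 3.16 (SD, n = 5) at D0 to 5.81 ± 0.94 (SD, n = 5) at D3. For Casq2 it was 0.76 (SE 0.41, interval -0.11 to 1.63, limma adjusted p = 0.376), which became 0.09 (limma adjusted p = 0.96) without mice 17 and 19, the lungs where it was highest. The others were 0.71 for Myl7, 0.72 for Myl4, 0.38 for Actc1, 0.42 for Tnni3, 0.36 for Tnnt2, 0.28 for Ryr2, 0.03 for Pln and 0.43 for Nppa. The interval for Myl7, -1.68 to 3.11, leaves room for a several-fold difference in either direction.

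Without the lungs of mice 17 and 19 these differences were smaller for every member, 1.59 for Myh6 (limma adjusted p = 0.777), 0.26 for Nppa, 0.09 for Myl7, 0.09 for Casq2, 0.04 for Myl4 and 5e-04 for Ryr2, and those of Actc1 (-0.0028), Tnni3 (-0.17), Tnnt2 (-0.19) and Pln (-0.11) were below 0. With slide as a block the Myh6 difference was 1.44 (limma adjusted p = 0.573) and that of Pln -0.02. The second Myh6 probe gave -0.11 at D3 against D0. At D1, 1 of 10 members was positive with a median log2 difference of -0.43, and at D2 10 of 10 were positive with a median of 0.29, all against the same D0 lungs. Limma called 0 members at either dose, as it called 0 of all probes, and 0 members had an unadjusted p of 0.05 or less, against 5.88% and 6.12% of all probes. Fs called 0 probes at D1 or D2.

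**Figure D3:**
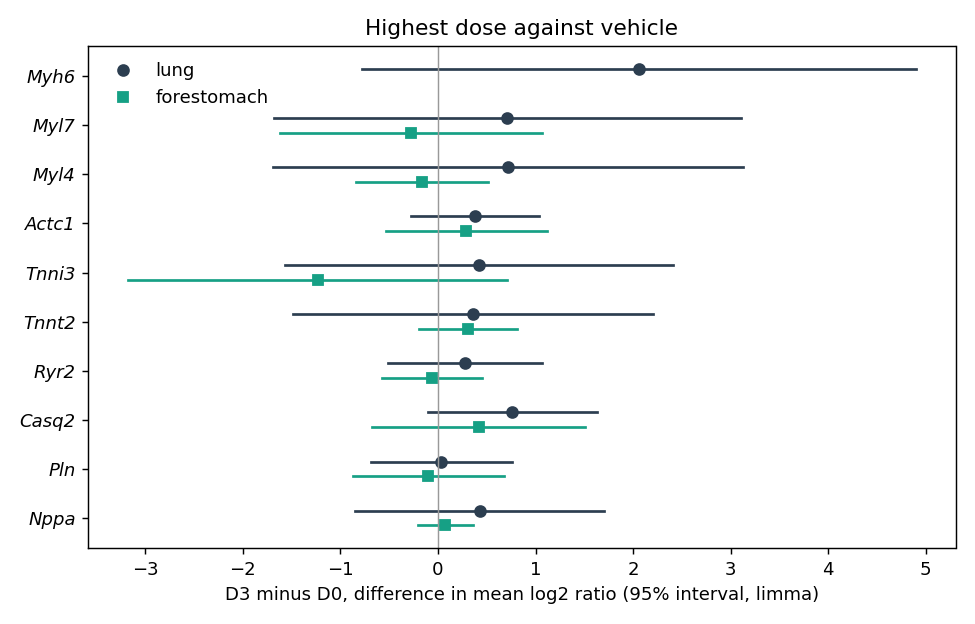
Log2 difference between D3 and D0 (horizontal axis) for each cardiac muscle gene in lung and forestomach, points being limma estimates and bars their 95% intervals. Every interval includes 0, and that of Myh6 in lung is the widest, from -0.78 to 4.90.

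Liver held little of these transcripts. The sample signals of Tnni3, Ryr2, Casq2 and Pln were well above background on 0 of 19 livers, Myl7 on 1 and Nppa on 3. For Myh6 the second probe was the brighter in liver (mean Cy5 signal 95.3 against 76.5), with log2 ratios of 0.29 to 0.90, a median of 0.55, and 9 of 19 arrays above background. Myl4 was above background on all 19 livers at log2 ratios of -1.77 to -1.42, and Actc1 and Tnnt2 on 15 each, at -0.99 to -0.53 and -1.75 to -0.86. Of the 5 members tested against D0, limma called 0 at any dose, as it called 0 of 24795 probes. At an unadjusted p of 0.05 or less 0 members passed, against 3.6%, 3.78% and 4.77% of all probes at D1, D2 and D3, and Fs called 0.

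In forestomach, Myl7, Tnnt2 and Casq2 were the members detected on most arrays. Myl7 was above background on 18 of 19 forestomachs, with log2 ratios of 3.07, 4.09, 0.27, 2.51 and 4.34 in mice 1 to 5 at D0 and 4.32, 3.06, 1.41, 2.47 and 2.88 in mice 6 to 10 at D1. At D2 its log2 ratios were 1.92, 2.89, 1.32 and 1.60 in mice 11, 12, 13 and 15, and at D3 3.23, 1.99, 1.85, 3.00 and 2.82. The dose groups overlapped. Myh6 was above background on 0 of 19 forestomachs, at log2 ratios from -0.34 to 0.18, so the atrial light chain was detected here without the heavy chain. Myl4 ran from -2.31 to -0.34 in log2 ratio, with a signal above background on 13 of 19.

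Tnni3 in forestomach was either clearly present or not detected. Its log2 ratios were -0.09, 4.06, 3.07, -0.18 and 1.20 at D0 and -0.34, -0.11, 1.80, -0.31 and 1.64 at D1. At D2 they were 1.48, 4.44, 1.24 and 1.04, and at D3 -0.11, -0.64, -0.22, 3.31 and -0.45. Tnni3 was well above background on 10 of 19 arrays, with log2 ratios of at least 1.04 there and at most -0.09 on the other 9. Those 10 arrays were the same 10 on which all 5 glandular stomach genes were above background, their mean log2 ratio being at least 5.04 on these and at most 2.18 on the other 9. The glandular stomach adjoins the forestomach in the mouse, and the mean log2 ratio of the hepatocyte genes was 1.71 to 4.62 on these 10 arrays, highest in mice 2 (4.62), 19 (3.86) and 12 (3.38). It was at most 0.98 on 8 of the other 9 and 3.20 in mouse 20, where Tnni3 was not detected. Tnni3 itself was above background on 0 of 19 livers. The part of the sampled region in Tnni3 was not tested. All 4 D2 arrays but only 1 of 5 D3 arrays were among the 10.

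**Figure D4:**
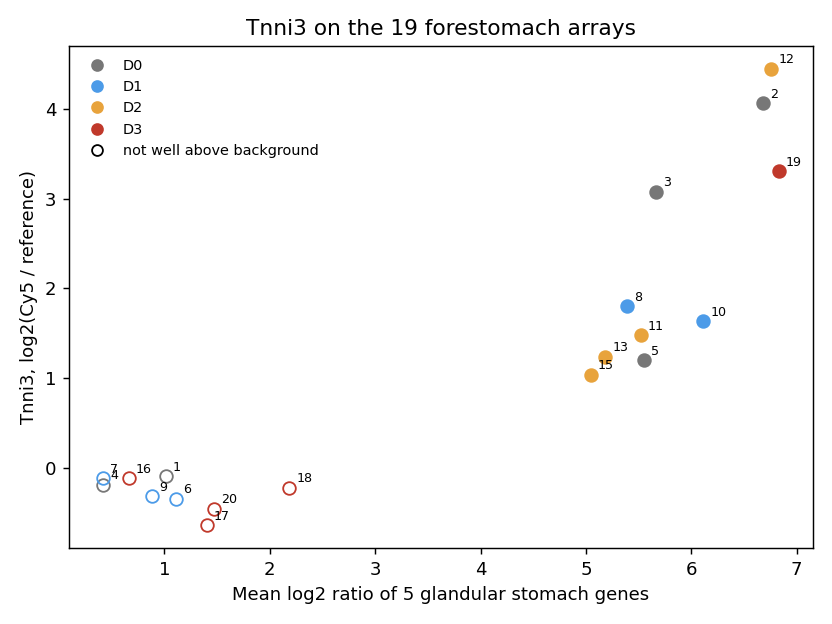
Log2 ratio of Tnni3 (vertical axis) against the mean log2 ratio of 5 glandular stomach genes (horizontal axis) in 19 forestomachs, 1 point per mouse, coloured by dose group. The 10 arrays at 5.04 or above on the horizontal axis have Tnni3 at 1.04 or above, and the other 9 have it at -0.09 or below.

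Casq2 and Pln in forestomach differed by slide. Casq2 was above background on 16 of 19 forestomachs, with log2 ratios from 0.77 to 1.91 on slide 1 (n = 5), 0.37 to 0.81 on slide 2 (n = 7) and 1.58 to 2.75 on slide 3 (n = 7). Pln was above background on 9 forestomachs, 2 on slide 1, 0 on slide 2 and 7 on slide 3, with log2 ratios from 0.18 to 0.86, -0.06 to 0.32 and 0.79 to 1.81. Each slide held arrays of all 4 dose groups, and slide 3 was scanned on a different day from slides 1 and 2. On slides 1, 2 and 3 the percentage of probes above background was 23.5 to 33.5, 18.2 to 28.7 and 39.0 to 50.2, the mean log2 ratio of 9 smooth muscle genes 3.79 to 4.46, 3.34 to 4.16 and 3.94 to 5.33, and that of the keratinocyte genes 4.62 to 4.88, 3.66 to 4.76 and 4.90 to 6.39. The highest values of all of these lay on slide 3, as did those of Myl7, at 2.82 to 4.34 against 1.92 to 3.23 and 0.27 to 2.51 on slides 1 and 2, and the part of the slide, the tissue makeup or the detection in these levels was not tested. Tnni3 was above background on 1 of 5, 4 of 7 and 5 of 7 forestomachs of slides 1, 2 and 3. Actc1 (12 of 19 arrays above background), Tnnt2 (18), Ryr2 (5) and Nppa (4) had log2 ratios from -1.34 to 1.14, -0.91 to 0.48, -0.31 to 1.12 and -0.13 to 0.71.

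No member met the limits for a change with chrysene in forestomach either. At D3 against D0 the log2 difference was -1.23 for Tnni3 (SE 0.93, 95% interval -3.18 to 0.71, limma adjusted p = 0.761), 0.42 for Casq2, 0.31 for Tnnt2, 0.29 for Actc1, 0.08 for Nppa, -0.06 for Ryr2, -0.10 for Pln, -0.16 for Myl4 and -0.27 for Myl7. Limma called 0 of the 9 members tested, against 0.00726% of 27541 probes, and 0 at D1 or D2, where it called 0 of all probes. At an unadjusted p of 0.05 or less 0 members passed at any dose, against 4.17%, 7.53% and 9.23% of all probes at D1, D2 and D3, and Fs called 0 members. A difference of the D3 effect between tissues was not called for any member. Limma's interaction called 0 in lung against liver (0% of all probes), lung against forestomach (0.703%) and forestomach against liver (0.0806%), with 0 members at an unadjusted p of 0.05 or less against 5.24%, 12.9% and 9.93%.

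Myl4 and Actc1 were higher in lung than in liver and than in forestomach. So was Tnnt2 in the fit of all arrays, but its forestomach call was lost with slide as a random block or with D0 arrays alone. In lung against liver, with dose groups weighted equally in limma, 8 of 10 members met the same limits, where 25.2% of 32870 probes were higher and 46.7% differed in either direction. Of these 8, Myh6 (on its first probe, the one compared), Myl7, Tnni3, Ryr2 and Casq2 were above background on 1 liver at most. They so entered the test through lung alone, and the count is a description and no support. With probes above background on every array of a tissue, 4 were called, but the share of all probes called under that filter was not counted. The log2 differences were 4.05 for Myl4 (SE 0.38, limma adjusted p = 9.89e-14), 3.08 for Actc1 (SE 0.16, adjusted p = 5.07e-23), 2.89 for Myl7 (SE 0.42, adjusted p = 1.96e-08, with 1 of 19 livers above background) and 2.11 for Tnnt2 (SE 0.29, adjusted p = 7.77e-09). Myh6, Tnni3, Ryr2 and Casq2 have only a bound in liver, where no array was above background on the probe compared, so their folds were taken from normalized Cy5 signals, whereas the calls used the ratio. The Cy5 signals were at least 47.3-fold higher for Myh6 (limma adjusted p of the ratio 3.25e-14), 3.64-fold for Tnni3 (adjusted p = 3.09e-05), 1.44-fold for Ryr2 (adjusted p = 6.82e-07) and 1.54-fold for Casq2 (adjusted p = 0.00201). The log2 differences of the ratio were 4.77 for Myh6, 2.02 for Tnni3, 0.85 for Ryr2 and 0.73 for Casq2, all set against livers below detection. The bound of Ryr2 is under the 1.5-fold limit, so its call rests on the measured ratio alone. For Myh6 the fold of 1 dye exceeds that of the ratio, in a gene whose Cy3 signal rose with Cy5. Such folds of 1 dye are open to dye bias, because no dyes were swapped. Pln and Nppa passed limma's p (adjusted p = 0.0154 and 0.00927) but were not called, since their measured log2 differences were 0.42 and 0.56. Pln was above background on 0 of 19 livers and Nppa on 3, so Pln has only a bound, at least 1.17-fold, and its fold in lung over liver can be larger.

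Every lung lay above every liver for Myh6 (first probe), Myl4 and Actc1, 3 of 10 members against 23.4% of all probes. The first Myh6 probe entered through lung alone, so its place in this count is a description and no support. On that probe the lowest lung log2 ratio was 0.22, against a highest liver value of 0.21. With the second Myh6 probe in both tissues, the lung against liver log2 difference was 0.16 (limma adjusted p = 0.245). Without the lungs of mice 17 and 19 that of Casq2 was 0.56 (adjusted p = 0.0124 in limma), under the 1.5-fold limit. Median centring gave 0.56 for Ryr2 and 0.56 for Casq2, both under the limit, and 0.60 for Nppa, which was then called. Nppa was also called with loess recomputed from the scanner signals (0.60, limma adjusted p = 0.00917).

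Against forestomach, 4 members were higher in lung by limma and 1 was lower, where 18.6% and 17.9% of 32715 probes were, 36.6% in all. Myh6 was at least 44.5-fold higher in normalized Cy5 signal (limma adjusted p of the ratio 3.68e-14), with a log2 ratio difference of 4.82 against forestomachs below detection, and the log2 ratios of Myl4, Actc1 and Tnnt2 were higher by 3.80 (SE 0.38, adjusted p = 1.09e-12), 2.36 (SE 0.16, adjusted p = 2.76e-18) and 0.91 (SE 0.29, adjusted p = 0.00474). Casq2 was lower in lung, with a log2 difference of -0.88 (SE 0.22, limma adjusted p = 0.000287). Myl7 and Tnni3 were not called: their lung against forestomach log2 differences were 0.41 (95% interval -0.43 to 1.25, limma adjusted p = 0.368) and 0.44 (-0.41 to 1.30, adjusted p = 0.339). Every lung lay above every forestomach for Myh6, Myl4 and Actc1, 3 of 10 members against 11.3% of all probes. Myh6 was above background on 0 of 19 forestomachs and so entered through lung alone. Its place in both counts is a description and no support. The lowest lung log2 ratio of Myh6 was 0.22, against a highest forestomach value of 0.18. Median centring of each array in place of loess, which moved the lung against forestomach median of all probes by 1.05, left Casq2 at -0.35 (limma adjusted p = 0.149) and gave 1.17 for Myl7 and 1.07 for Tnni3, so the calls of these 3 genes rest on the normalization. With slide as a random block, the Tnnt2 difference was 0.85 (limma adjusted p = 0.112).

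In forestomach against liver, 6 of the 9 members tested were called higher by limma, where 22.5% of 29794 probes were higher and 41.5% differed in either direction. Of the 6, Myl7, Casq2, Tnni3 and Pln entered the test through forestomach alone, so the count is again only a description. With probes above background on every array of a tissue 0 were called, and the share of all probes called under that filter was not counted. The log2 differences were 2.48 for Myl7 (SE 0.41, adjusted p = 3.91e-07, with 1 of 19 livers above background), 1.20 for Tnnt2 (SE 0.29, adjusted p = 0.000187) and 0.71 for Actc1 (SE 0.16, adjusted p = 6.99e-05) in limma. By normalized Cy5 signal Casq2 was at least 3.00-fold, Tnni3 at least 2.81-fold and Pln at least 1.32-fold higher in forestomach, with limma adjusted p of the ratios of 2.07e-09, 0.000656 and 0.000118. The log2 differences of their ratios were 1.60, 1.57 and 0.68, against livers below detection, and the bound of Pln is under the 1.5-fold limit, so its call rests on the measured ratio alone. Casq2 was the member for which every forestomach lay above every liver, 1 of 9 against 13.9% of all probes. Under median centring 3 members were called, with Actc1 at 0.41, Tnnt2 at 0.61 and Pln at 0.57 lost. The order of levels differed by gene: lung was the highest for Myh6 (first probe), Myl4 and Actc1. On the deposited ratios Casq2 was higher in forestomach than in lung, and the test did not tell these tissues apart for Myl7 and Tnni3. Under median centring Casq2 was not called, and Myl7 and Tnni3 were called higher in lung than in forestomach. With D0 arrays alone, the lung against forestomach difference of Tnnt2 was 1.14 (limma adjusted p = 0.0793) and the lung against liver difference of Casq2 was 0.53 (adjusted p = 0.254), neither of them called.

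**Figure D5:**
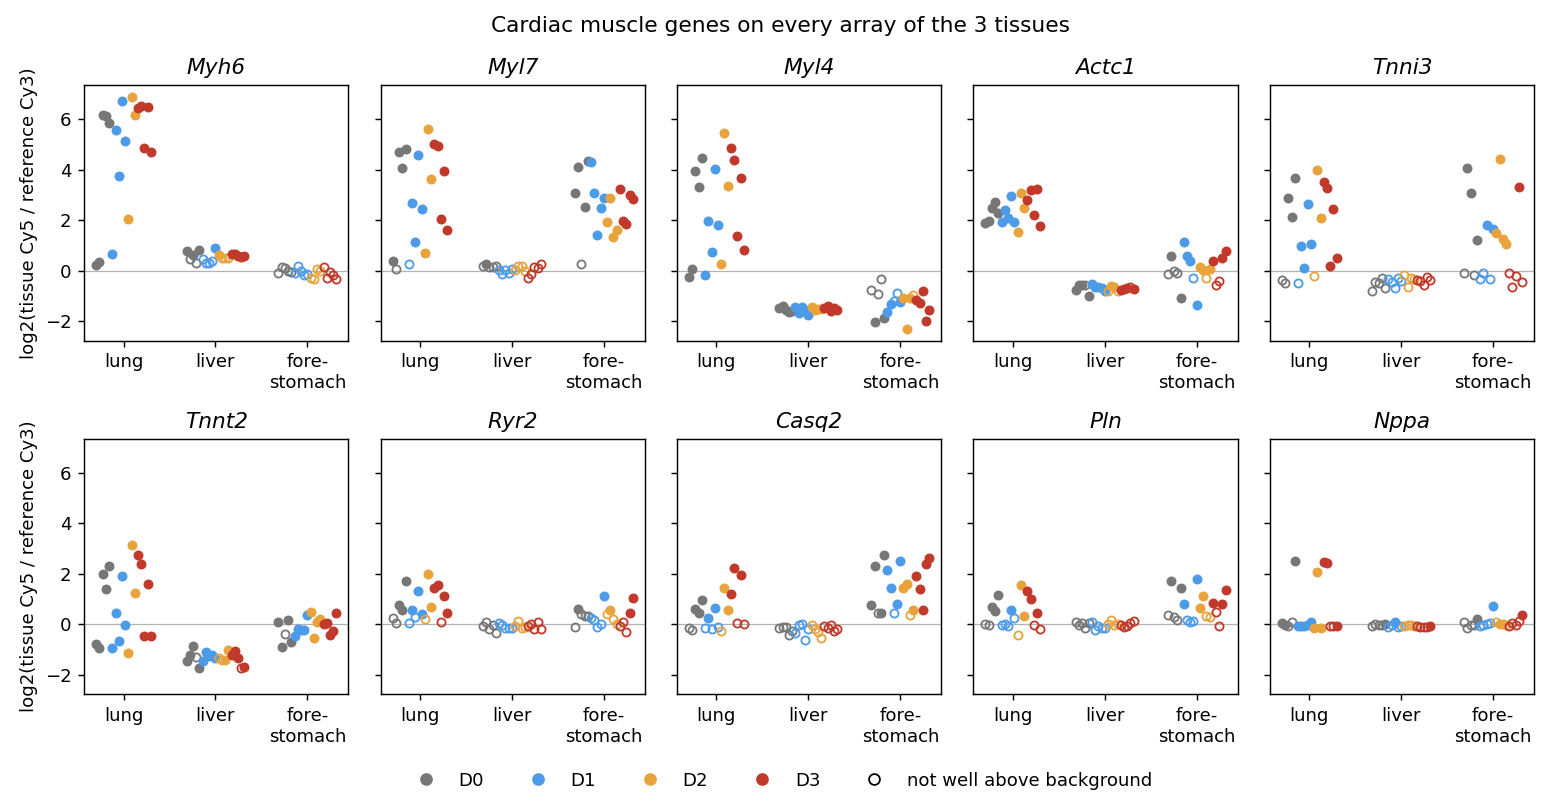
Log2 ratio (sample over reference, vertical axes) of each cardiac muscle gene on every lung, liver and forestomach array, 1 point per mouse, open where the sample signal was not well above background (the liver points of Myh6 are its second probe). Myl4 and Actc1 are higher in every lung than in any liver or forestomach, whereas the lung and forestomach points of Myl7 and Tnni3 overlap.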

How the data were processed

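RNA of 56 tissue samples was hybridized to 2-colour Agilent mouse 8 × 60 K arrays, the sample in Cy5 and universal mouse reference RNA in Cy3, with no dye swaps. The deposited scanner files, from Feature Extraction 10.7.3.1 per the submitters' processing notes, hold Cy5 and Cy3 median intensity and flags per spot. The deposited log2 ratios (Cy5 over Cy3) were made by the authors by LOWESS on median signals without background subtraction, and both scale and sign were compared with the scanner signals. Ratios were used as deposited. Control spots (3671 of 62976) were left out. Of 55681 probes, 26413 (47.4%) were named through RefSeq transcripts.

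Dose groups were compared within each tissue, and tissues over all arrays, with limma 3.58.1 in R 4.3.3 (two-sided, Benjamini-Hochberg over all probes tested), on probes with Cy5 well above background on at least 3 arrays of a tissue. A call needed an adjusted p of 0.05 or less and a change of at least 1.5-fold, as in the study's methods. Their MAANOVA test stands as an alternative, as the Fs statistic with p from 100 permutations of the arrays, whereas the study shuffled residuals. Slopes on Myh6 used the 18 lungs with dose group as a term. Lower bounds used Cy5 intensities after loess and Aquantile, against the lowest signal among probes well above background. The number of arrays limits the precision, and counting errors do not apply. The fits were tested on simulated data.

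All 10 members were named, with the atrial and ventricular genes of the wider cardiac list and the 10 genes most like Myh6, of which 1 is not reported here. Members and lists were chosen with earlier results of these data known. The 3 tissues of 1 number came from 1 mouse. Deviations from group means of the same mouse had a median correlation of 0.09 between lung and liver (18 mice), 0.02 between lung and forestomach (18) and 0.06 between liver and forestomach (19). Alternatives covered the normalization, background correction, filter, Cy5 alone (added after the reference signal was seen to follow Cy5), slide, array column, mouse block, probe, D0 arrays alone, mice 17 and 19, and each mouse left out.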

Additional observations from a re-analysis of the deposited data

Results flagged for a closer look

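Values of 110 groups of 4 or 5 arrays, 1 for each gene, tissue and dose group, were screened for a sample far from the rest of its group, of which chance marks about 1 in 20. In 8 groups 1 sample stood apart, 1 in lung, 3 in liver and 4 in forestomach. In lung this was Nppa in mouse 5 at D0, with a log2 ratio of 2.50 where the next was 0.08. In liver it was Myh6 on its second probe in mouse 10 at D1 (0.90, next 0.45) and in mouse 11 at D2 (0.61, next 0.51), and Myl7 in mouse 2 at D0 (0.28, next 0.17), all small differences in log2 ratio near the detection limit. In forestomach, Tnni3 stood at 4.44 in mouse 12 at D2 (next 1.48) and at 3.31 in mouse 19 at D3 (next -0.11), both among the 10 arrays with glandular stomach genes. Mouse 12 also had the lowest Myl4 log2 ratio in forestomach at D2 (-2.31, next -1.08). Nppa in forestomach was 0.71 in mouse 10 at D1, where the next was 0.05. No member had a D3 effect that differed between tissues in limma's interaction test (0 called).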

How the results depend on the processing

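Counts of members called against D0 (0 in each tissue) and of D3 effects that differed between tissues (0) were the same under every alternative run and without any 1 mouse. Under median centring, which moved the median log2 difference of all probes by 0.71 in lung against liver, 1.05 in lung against forestomach, -0.15 in forestomach against liver, and 0.14 and 0.18 at D3 in lung and forestomach, members lower in lung than in forestomach fell from 1 to 0 and members higher in forestomach than in liver from 6 to 3, while those higher in lung than in liver lost Ryr2 and Casq2 and gained Nppa. It turned Myl4 to 0.24 at D3 in forestomach and to -0.31 in forestomach against liver. With probes above background on every array, which tests fewer members, the counts were 4 higher in lung than in liver, 0 lower in lung than in forestomach, 0 higher in forestomach than in liver and 2 with a slope on Myh6. The second Myh6 probe gave 8 slopes and -0.11 for Myh6 at D3 in lung. The share of all probes called was not counted under that filter or with this probe as the index. With D0 arrays alone, 3 members were higher in forestomach than in liver, and lung against forestomach was -0.0458 for Myl7 and -0.0487 for Tnni3. Cy5 alone gave 0.0192 for Pln at D3 in forestomach and added Pln to the slopes on Myh6 (5 in all). Loess computed here added Nppa in lung against liver. The slide block gave -0.0214 for Pln at D3 in lung. Array column as a term gave 0.49 for Myl4, -0.16 for Actc1 and -0.15 for Casq2 at D3 in forestomach. In lung, array column follows dose, and the Myh6 difference became 8.98 (limma adjusted p = 1). Without lung mice 17 and 19, D3 in lung was -0.0028 for Actc1, -0.17 for Tnni3, -0.19 for Tnnt2 and -0.11 for Pln. The cause of these shifts was not tested.

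Leaving out 1 mouse at a time, members higher in lung than in liver numbered 8 to 9 (Nppa the addition), higher in lung than in forestomach 4 to 6 (Tnni3 and Ryr2 added without mouse 12) and lower 1, higher in forestomach than in liver 6, and with a slope on Myh6 from 2 (without mouse 12) to 4. D3 differences in lung ran from -0.10 to 0.95 for Tnni3, -0.0749 to 0.77 for Tnnt2 and -0.17 to 0.21 for Pln, and in forestomach from -0.92 to 0.10 for Myl7, -0.37 to 0.0513 for Myl4, -0.26 to 0.0768 for Ryr2 and -0.26 to 0.13 for Pln. The mouse as a replicate block (consensus correlation 0.0256) gave 8 members higher in lung than in liver, 4 higher and 1 lower than in forestomach, and 6 higher in forestomach than in liver, and changed no call. Members with signals near background, Pln, Ryr2 and Casq2 in lung and most members in liver, were measured only coarsely.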
